A study of Mus musculus with 6 samples.

Results

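The genes described here were 9 named members of the interferon response and of MHC class I antigen presentation, measured by RNA sequencing in cultured mouse muscle satellite cells (SCs), the stem cells of skeletal muscle. The members were *Stat2*, *Irf1*, *Irf7*, *Ifit1*, *Ifit3*, *Isg15*, *B2m*, *H2-K1* and *H2-D1*. They were taken by gene symbol, and each matched 1 of the 55416 genes listed for the series. Of the 9, 6 had a mean of at least 1 TPM, a length-scaled share of all transcripts, over all libraries and entered the test across 12956 genes. *Irf7*, *Ifit1* and *Ifit3* lay below that mean and are given by their values alone.

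The series held 3 libraries from wild-type (WT) SCs and 3 from *Ltf*-KO SCs. *Ltf* encodes lactoferrin, an iron-binding glycoprotein of milk, other secretions and neutrophil granules. The knockout was systemic and was made in C57/BL6N zygotes with CRISPR-Cas9, so the deletion was not limited to SCs. In both groups SCs were flow-sorted from muscle as Sca1-/CD11b-/CD34+/α7-integrin+ cells and then kept for 4 days in growth medium with serum, chick embryo extract and basic fibroblast growth factor. No interferon or other agent was added to either group, so the comparison asks whether the resting level of these genes differed with the *Ltf* genotype. The sources used here do not say whether the libraries of a group came from separate mice, so p-values measure only the spread between these samples.

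The deposited values were TPM with no read counts, so the depth of each library is unknown and no counting interval can be given. *Ltf* itself was listed at 0.12, 0.02 and 0.02 TPM in WT 1 to 3 and at 0.02, 0.03 and 0 TPM in *Ltf*-KO 1 to 3. The gene was near 0 in both groups, so its level does not check the genotype labels. The 8 SC and myoblast markers summed to 2392 to 2448 TPM in WT and to 2436 to 2471 TPM in *Ltf*-KO libraries. The gate is stated as CD11b-, while the antibodies listed in the methods were against CD31, CD45, Sca1 and α7-integrin. The 10 macrophage and leukocyte markers summed to 12.7 to 19.5 TPM in WT and to 9.92 to 12.9 TPM in *Ltf*-KO libraries. Of these 10 markers 3 had a mean of at least 1 TPM: *Cd14* at 7.29, *Cd68* at 3.53 and *Lyz2* at 2.06 TPM. *Lyz2* was uneven between libraries. It was at 7.22, 2.31 and 0.38 TPM in WT 1 to 3 and at 1.11, 0.95 and 0.38 TPM in *Ltf*-KO 1 to 3. *Ptprc*, the pan-leukocyte surface marker, had a mean of 0.068 TPM and *Aif1* was at 0 in all 6 libraries. Of 5 T and NK cell markers none reached a mean of 1 TPM, and *Ncr1* was at 0 throughout. The 8 endothelial markers summed to 7.66 to 19.1 TPM in WT and to 7.66 to 16.1 TPM in *Ltf*-KO libraries. The 7 fibroblast markers summed to 103 to 108 and 102 to 134 TPM. *Col3a1*, with a mean of 96.7 TPM, made up most of that sum, and the other fibroblast markers had means from 0.075 to 5.98 TPM. These are bulk libraries, in which fewer cells of a type and less RNA per cell cannot be told apart.

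Type I interferons bind a receptor pair on the cell surface and activate the kinases JAK1 and TYK2, which phosphorylate STAT proteins. The factor ISGF3, which contains STAT2 and IRF9, then binds the interferon-stimulated response element (ISRE) in promoters of genes such as *Ifit1* and *Isg15*. Interferon-γ acts on promoters through the gamma-activated site (GAS), as in *Irf1*. MHC class I molecules carry peptides to the cell surface for CD8+ T cells and consist of a heavy chain, here H2-K1 or H2-D1, with the invariant light chain B2M. Their transcription rises with interferon, and cultured myoblasts are known to carry class I that interferon-γ increases.

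The promoters of the members were searched for motif letters, some of which were chosen after the promoters had been read. Each pattern is given below with its share over all genes that have a promoter window, and the patterns are not pooled. RefSeq promoter windows on GRCm38.p6, which run from 250 bases before to 50 bases after a transcript start, were present for 9 of 9 members. The following excerpts, 5′ to 3′ on the gene's strand, are shown because they hold letters searched, which are in capitals. In *H2-K1* and *H2-D1* the capitals also mark GGGGATTCCCC, searched as a κB site and not as an interferon motif.
Stat2: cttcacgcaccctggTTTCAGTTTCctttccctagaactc
Irf1: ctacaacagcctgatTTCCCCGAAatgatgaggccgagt
Ifit1: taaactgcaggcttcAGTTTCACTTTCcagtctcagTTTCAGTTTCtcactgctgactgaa
Ifit3: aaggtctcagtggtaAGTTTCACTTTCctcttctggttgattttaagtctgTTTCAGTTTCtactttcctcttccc
Isg15: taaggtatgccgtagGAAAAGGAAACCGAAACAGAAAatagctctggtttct
B2m: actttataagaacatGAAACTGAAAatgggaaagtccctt
H2-K1: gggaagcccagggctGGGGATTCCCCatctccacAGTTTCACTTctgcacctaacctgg
H2-D1: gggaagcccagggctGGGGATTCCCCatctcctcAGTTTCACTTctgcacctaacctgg

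The excerpts lie at chr10:128270261-128270300 on the plus strand for *Stat2*, chr11:53769909-53769947 (plus) for *Irf1*, chr19:34640768-34640828 (plus) for *Ifit1* and chr19:34583356-34583431 (plus) for *Ifit3*. Those of the other members lie at chr4:156200860-156200911 (minus) for *Isg15*, chr2:122147533-122147572 (plus) for *B2m*, chr17:34000415-34000473 (minus) for *H2-K1* and chr17:35262908-35262966 (plus) for *H2-D1*. The ISRE core was searched as GAAANNGAAA on both strands, which reads TTTCNNTTTC on the other strand. It was found in 5 of 9 members (*Stat2*, *Ifit1*, *Ifit3*, *Isg15* and *B2m*), against 3.99% of the 27025 genes that have a window. The core began 222 bases before the start of *Stat2* and 139 bases before that of *B2m*. *Ifit1* held cores at 104 and 85 bases and *Ifit3* at 156 and 122 bases before the start, while *Isg15* held 3 overlapping cores at 78, 72 and 66 bases. The GAS letters TTCNNNGAA were in the *Irf1* window alone among the members, 90 bases before the start, and in 9.55% of all genes with a window. The *Irf7* window held none of the letters searched.

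The excerpts of *H2-K1* and *H2-D1* were identical at 58 of 59 bases although the genes lie on opposite strands of chromosome 17. Both hold the κB letters GGGGATTCCCC followed by AGTTTCACTT, the interferon consensus sequence of class I genes. In *H2-K1* these began 111 and 92 bases before the first of its RefSeq starts, and in *H2-D1* 171 and 152 bases before the start. These letters were searched on both strands and were chosen after the promoters had been read. The κB letters were in 9 (0.0333%) and the interferon consensus letters in 45 (0.1665%) of the 27025 genes that have a window. These counts include the class I genes: the κB letters were in 3 of the 12 class I heavy chain genes that have a window. The interferon consensus letters were found in 8 of the 12 class I heavy chain genes that have a window, and also in *Ifit1* and *Ifit3*, where they overlap the ISRE core. A match of letters is a description of the reference sequence and does not show that a factor was bound in these cells.

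The members covered a range from 440.3 to 0.213 TPM, and the class I genes stood far above the interferon-response genes. TPM is scaled by transcript length, so levels can be compared between genes. *B2m*, the class I light chain, was highest with 437 ± 28.3 TPM in WT and 443 ± 35.0 TPM in *Ltf*-KO SCs (SD, n = 3 each), and only 0.568% of all listed genes had a higher mean. *H2-D1* and *H2-K1*, the class I heavy chains, had means over all 6 libraries of 59.4 and 57.5 TPM. The *B2m* level was 7.41 times that of *H2-D1*, and the ranges of these genes over the libraries did not overlap. *H2-D1* was above *H2-K1* in 5 of 6 libraries, but the ratio of their means was 1.03 and their ranges overlapped. *H2-K1* was 13.3 times as high as the next member, *Irf1*, with no overlap.

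*Irf1*, a transcription factor induced through GAS, had a mean of 4.34 TPM and *Stat2*, the ISGF3 subunit, 3.61 TPM. *Irf1* was above *Stat2* in 6 of 6 libraries, though the ranges overlapped. *Isg15*, a ubiquitin-like modifier, followed at 1.5 TPM and was below *Stat2* in 6 of 6 libraries. *Irf7*, the factor that amplifies type I interferon production, had a mean of 0.973 TPM. *Ifit3* and *Ifit1*, antiviral proteins of which IFIT1 binds foreign 5′ RNA ends, had means of 0.532 and 0.213 TPM. *Isg15* was above *Irf7* in 4 of 6 libraries, *Irf7* above *Ifit3* in 5 of 6 and *Ifit3* above *Ifit1* in 5 of 6, so the order of the lowest 4 members is not resolved in single libraries.

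**Figure D1:**
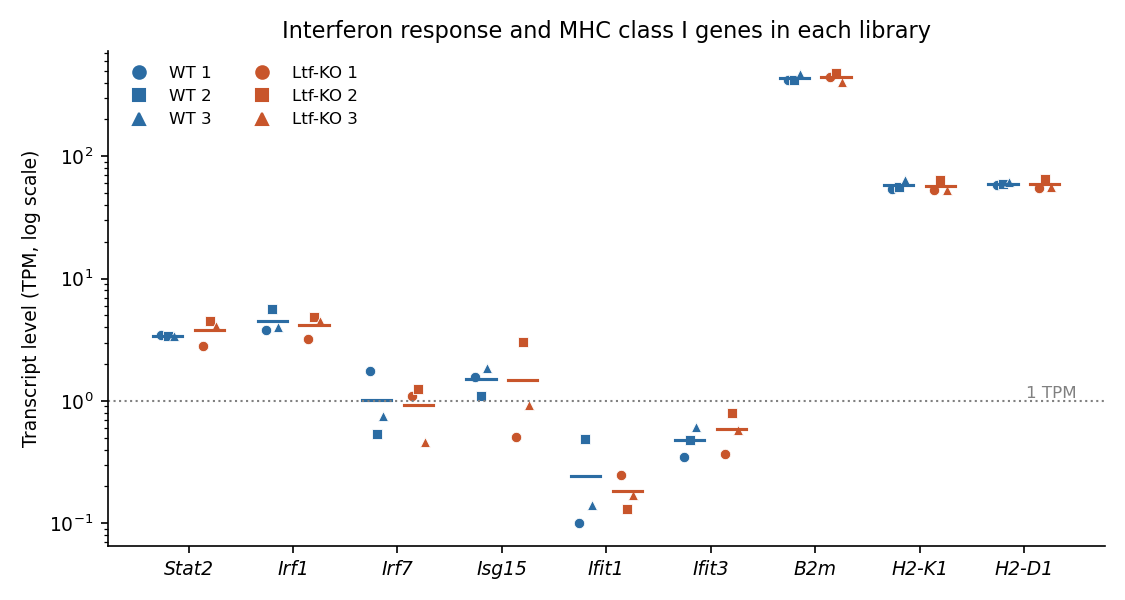
Level of the 9 genes in each library (TPM, log10 axis), with WT in blue, *Ltf*-KO in red, a symbol for each library number and a line at the mean of each group. *B2m*, *H2-D1* and *H2-K1* lie above 50 TPM, the other 6 genes lie between 0.10 and 5.66 TPM, and the groups overlap for every gene.

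Relative spread followed this order only in part. The coefficient of variation over the 6 libraries was 6.51% for *B2m*, 6.17% for *H2-D1* and 9.10% for *H2-K1*, against medians of 3.87% for all genes at 100 to 1000 TPM and 4.82% for those at 50 to 100 TPM. It was 19.7% for *Irf1* and 16.3% for *Stat2*, near the median of 17.2% for genes at 2 to 5 TPM. *Isg15* varied by 59.5%, against a median of 26.0% for genes at 1 to 2 TPM. For *Irf7*, *Ifit3* and *Ifit1* the values were 50.2%, 31.7% and 67.9%, against 48.7% for all genes at 0.2 to 1 TPM.

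No member differed between *Ltf*-KO and WT SCs beyond the spread between libraries. By limma on log2(TPM + 1), 0 of the 6 tested members passed a Benjamini-Hochberg adjusted p of 0.05, and 0.0% of the 12956 genes tested did so (percent called), the lowest adjusted p of any gene being 0.181. At an unadjusted p under 0.05, 0 of 6 members were counted against 3.78% of all genes tested (490 genes), 2.01% being higher and 1.78% lower in *Ltf*-KO SCs. The groups overlapped for 9 of 9 members, while they did not overlap for 8.46% of all genes tested, 4.73% with *Ltf*-KO higher and 3.73% with *Ltf*-KO lower. The median log2 fold change (*Ltf*-KO over WT) was -0.032 over the 6 tested members and 0.011 over all genes tested. All adjusted p-values of the members were 0.999. Fold changes on the log2(TPM + 1) scale understate the change of low genes, which bears on *Isg15* most. With 3 libraries against 3, an exact permutation test cannot give a p below 0.1.

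Among the signalling factors, *Stat2* was at 3.47, 3.37 and 3.42 TPM in WT 1 to 3 and at 2.82, 4.50 and 4.06 TPM in *Ltf*-KO 1 to 3. The WT libraries were nearly equal and the *Ltf*-KO libraries fell on both sides of them. Its log2 fold change was 0.10 ± 0.15 (SE), with a 95% interval from -0.26 to 0.46. *Irf1* was at 3.83, 5.66 and 3.98 TPM in WT and at 3.22, 4.82 and 4.53 TPM in *Ltf*-KO SCs, with its highest value in WT 2 and its lowest in *Ltf*-KO 1. Its log2 fold change was -0.08 ± 0.18, with an interval from -0.51 to 0.35. *Irf7* was at 1.75, 0.54 and 0.75 TPM in WT and at 1.09, 1.25 and 0.46 TPM in *Ltf*-KO SCs, so that WT 1 was highest and the *Ltf*-KO libraries lay inside or just below the WT range. A two-sided exact permutation test on log2(TPM + 1) gave p = 0.9 for *Irf7*.

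Among the interferon-stimulated effectors, *Isg15* was at 1.57, 1.09 and 1.84 TPM in WT and at 0.51, 3.04 and 0.93 TPM in *Ltf*-KO SCs. Both its highest and its lowest value were thus in *Ltf*-KO libraries, with group means of 1.5 ± 0.38 and 1.49 ± 1.36 TPM (SD, n = 3 each). Its log2 fold change was -0.12 ± 0.37, with a 95% interval from -1.02 to 0.77, the widest of the 6 tested members. The value rested on single libraries: it was -0.54 without *Ltf*-KO 2 and 0.17 without *Ltf*-KO 1. *Ifit1* was at 0.10, 0.49 and 0.14 TPM in WT and at 0.25, 0.13 and 0.17 TPM in *Ltf*-KO SCs, all below 0.5 TPM, with p = 0.9 by the exact permutation test. *Ifit3* was at 0.35, 0.48 and 0.61 TPM in WT and at 0.37, 0.80 and 0.58 TPM in *Ltf*-KO SCs, with p = 0.6 by the same exact test. For *Ifit3*, 41.1% of the stretches of 75 bases in its longest GENCODE M21 transcript also occur in *Ifit3b*, so its value is uncertain where reads could be split between these copies. For *Ifit1*, 5.19% of such stretches also occur in *Ifit1bl2*.

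For the class I genes the intervals were narrow. *B2m* was at 423, 419 and 469.9 TPM in WT and at 445, 477 and 407 TPM in *Ltf*-KO SCs, so that the WT range lay within the *Ltf*-KO range. Its log2 fold change was 0.019 ± 0.071, and the 95% interval corresponds to a ratio of TPM + 1 from 0.901 to 1.14. *H2-K1* was at 54.3, 56.5 and 64.0 TPM in WT and at 52.9, 64.2 and 53.2 TPM in *Ltf*-KO SCs, with the highest value of both groups nearly equal. Its log2 fold change was -0.038 ± 0.096, with a ratio interval from 0.831 to 1.14. *H2-D1* was at 58.4, 59.0 and 62.2 TPM in WT and at 55.2, 65.1 and 56.5 TPM in *Ltf*-KO SCs, the *Ltf*-KO libraries again lying on both sides of the WT range. Its log2 fold change was -0.026 ± 0.070, with a ratio interval from 0.874 to 1.10. The heavy chain genes share some sequence with related genes. Stretches of 75 bases shared with other genes made up 6.90% of the longest *H2-D1* transcript, with 17 genes sharing them, and 1.33% of that of *H2-K1*. All the shared stretches of *H2-K1* also occur in *H2-D1*, so reads from them could be split between these genes. *B2m* shared none.

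**Figure D2:**
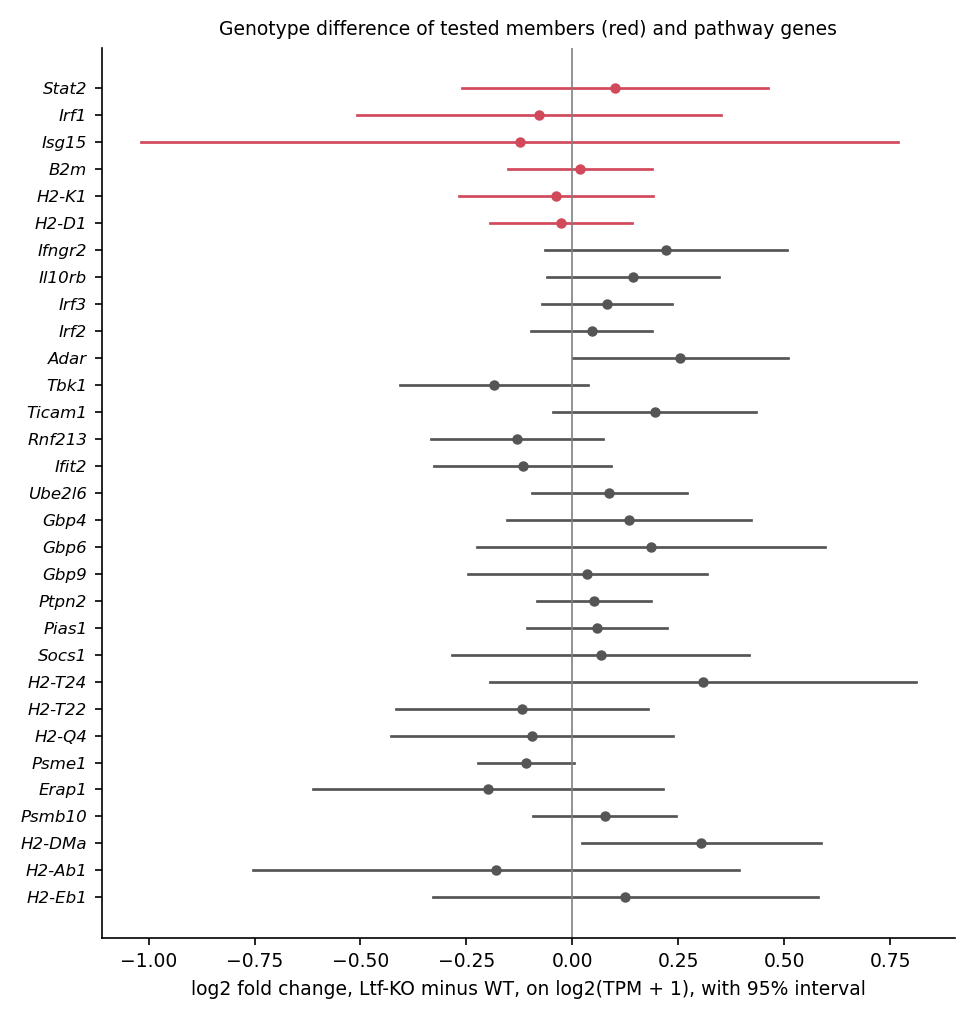
Difference between *Ltf*-KO and WT SCs (log2 fold change on log2(TPM + 1), x axis) for the 6 tested members in red and named pathway genes in grey, with points for the fitted value and lines for the 95% interval. All 6 intervals of the members include 0, from the narrow ones of *B2m* and *H2-D1* to that of *Isg15*, which runs from -1.02 to 0.77.

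For *Stat2*, *Isg15*, *B2m*, *H2-K1* and *H2-D1* both the highest and the lowest value lay in *Ltf*-KO libraries. Over all genes tested the highest value lay in *Ltf*-KO 1, 2 and 3 for 16.7%, 21.3% and 17.0%. The lowest lay there for 12.8%, 15.2% and 18.7%. The share of all genes with both in this group was not counted, so this is not read as a trait of the members. *Ltf*-KO 2 was the highest library for 6 of 9 members, for 5 of the 6 tested members and for 21.3% of all genes tested. *Ltf*-KO 1 was the lowest library for 5 of 9 members, for 5 of the 6 tested members and for 12.8% of all genes tested. Over the 9 tested class I heavy chain genes, which include *H2-K1* and *H2-D1*, *Ltf*-KO 2 was highest for 7 and *Ltf*-KO 1 lowest for 6. Over the 14 tested genes for class I peptide supply and loading, which include *B2m*, *Ltf*-KO 2 was highest for 5 and *Ltf*-KO 1 lowest for 2. Over the 22 tested interferon-stimulated genes, *Ltf*-KO 2 was highest for 5 and *Ltf*-KO 1 lowest for 4. Markers of other cell types and of differentiation also differed between these libraries. The 6 markers of myocytes, differentiated muscle cells, summed to 1646, 2075 and 1583 TPM in WT 1 to 3. In *Ltf*-KO 1 to 3 they summed to 1808, 1607 and 2426 TPM, and *Ltf*-KO 3 was highest for 6 of 6. The 8 endothelial markers summed to 10.5, 7.66 and 19.1 TPM in WT 1 to 3. In *Ltf*-KO 1 to 3 they summed to 14.4, 16.1 and 7.66 TPM. The sum was highest in WT 3 and *Ltf*-KO 2, the libraries in which the class I members were high. It was next highest in *Ltf*-KO 1, which was the lowest library for both heavy chains. Of the 5 tested endothelial markers WT 3 was highest for 4 and *Ltf*-KO 2 for 1. Of the 5 tested fibroblast markers *Ltf*-KO 2 was highest for 3, among them *Dcn* at 6.83 TPM and *Col1a1* at 9.32 TPM, against 5.71 and 6.91 TPM in *Ltf*-KO 1. The summed fibroblast level was nevertheless highest in *Ltf*-KO 1, at 134 TPM, of which *Col3a1* made up 118 TPM. Leukocyte markers summed to 12.5 TPM in *Ltf*-KO 1 and 12.9 TPM in *Ltf*-KO 2. The part of these cell types in the library pattern was not tested.

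**Figure D3:**
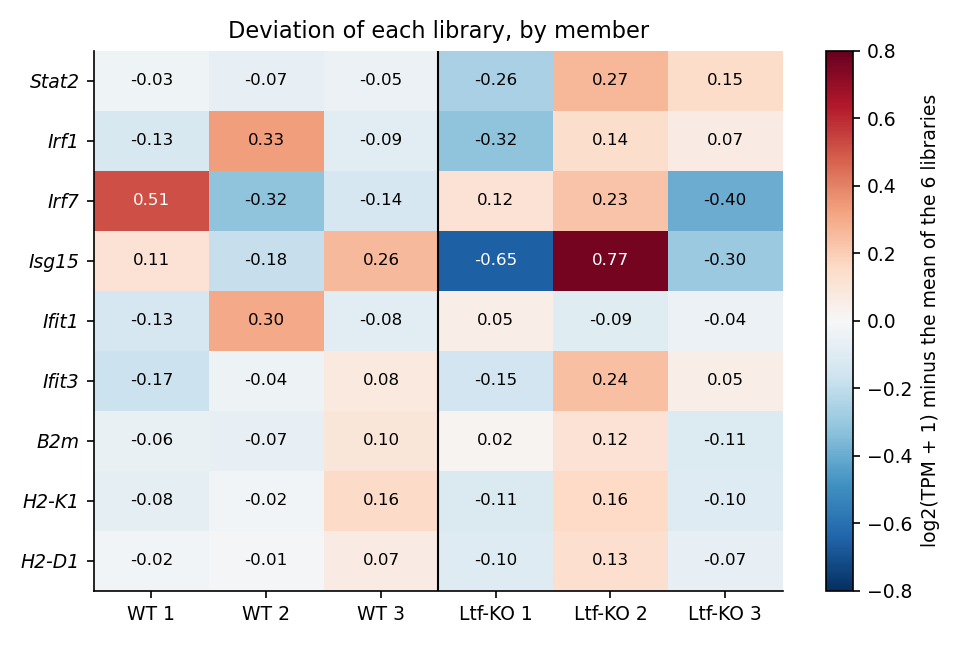
Deviation of each of the 9 genes in each library from its own mean over the 6 libraries (log2(TPM + 1), red above and blue below the mean, genes in rows and libraries in columns). *Isg15* has the largest deviations, -0.65 in *Ltf*-KO 1 and 0.77 in *Ltf*-KO 2, and *B2m*, *H2-K1* and *H2-D1* are above their means in both WT 3 and *Ltf*-KO 2.

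The heavy chains ranked the libraries identically, from *Ltf*-KO 2 through WT 3, WT 2, WT 1 and *Ltf*-KO 3 to *Ltf*-KO 1. Across the 6 libraries *H2-K1* and *H2-D1* had Pearson's r of 0.951 (exact permutation p = 0.00139, adjusted p = 0.0208 over the 15 pairs of tested members) and Spearman's rho of 1.0 (exact permutation p = 0.00278, adjusted p = 0.0417). Without WT 3 and *Ltf*-KO 2, the libraries farthest from the median of *H2-K1*, r was 0.884. *Isg15* and *H2-D1* had r of 0.956 (exact permutation p = 0.00278, adjusted p = 0.0208) and rho of 0.943 (exact permutation p = 0.0167, adjusted p = 0.0834), so the rank relation did not pass the adjustment. Without *Ltf*-KO 1 and *Ltf*-KO 2 their r was 0.82. *Isg15* and *H2-K1* had r of 0.844 (exact permutation p = 0.0236, adjusted p = 0.118) and rho of 0.943 (exact permutation p = 0.0167, adjusted p = 0.0834), and r of 0.72 without the same libraries. The labels give no batch. With the mean of each genotype removed, a setting added after the data were seen, r was 0.949 for *H2-K1* with *H2-D1*, 0.955 for *Isg15* with *H2-D1* and 0.840 for *Isg15* with *H2-K1*. Permuting libraries within genotype gave exact p = 0.0278, 0.0556 and 0.0833 for these pairs, each with an adjusted p of 0.417 over the 15 pairs. The 36 arrangements cannot give a p below 0.0278, so a single pair could not pass the adjustment.

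For the light chain with a heavy chain, *B2m* and *H2-K1* had r of 0.832 (exact permutation p = 0.0542, adjusted p = 0.203) and rho of 0.6 (exact permutation p = 0.242, adjusted p = 0.403). Without WT 3 and *Ltf*-KO 2 r was -0.28, so that relation rests on these libraries. With genotype means removed r was 0.867 (exact permutation p = 0.111, adjusted p = 0.417). The ratio of *B2m* to the sum of *H2-K1* and *H2-D1* was 3.75, 3.63 and 3.73 in WT 1 to 3 and 4.12, 3.69 and 3.71 in *Ltf*-KO 1 to 3. *Ltf*-KO 1 stood above the other 5 libraries in this ratio, having the lowest heavy chain levels and a *B2m* level within the range of the others. *Stat2* and *Irf1* passed the adjustment in none of their pairs, the highest being *Stat2* with *Isg15* at r of 0.721 (exact permutation p = 0.1, adjusted p = 0.281) and rho of 0.6 (exact permutation p = 0.242, adjusted p = 0.403), which turned to -0.63 without *Ltf*-KO 1 and *Ltf*-KO 2.

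**Figure D4:**
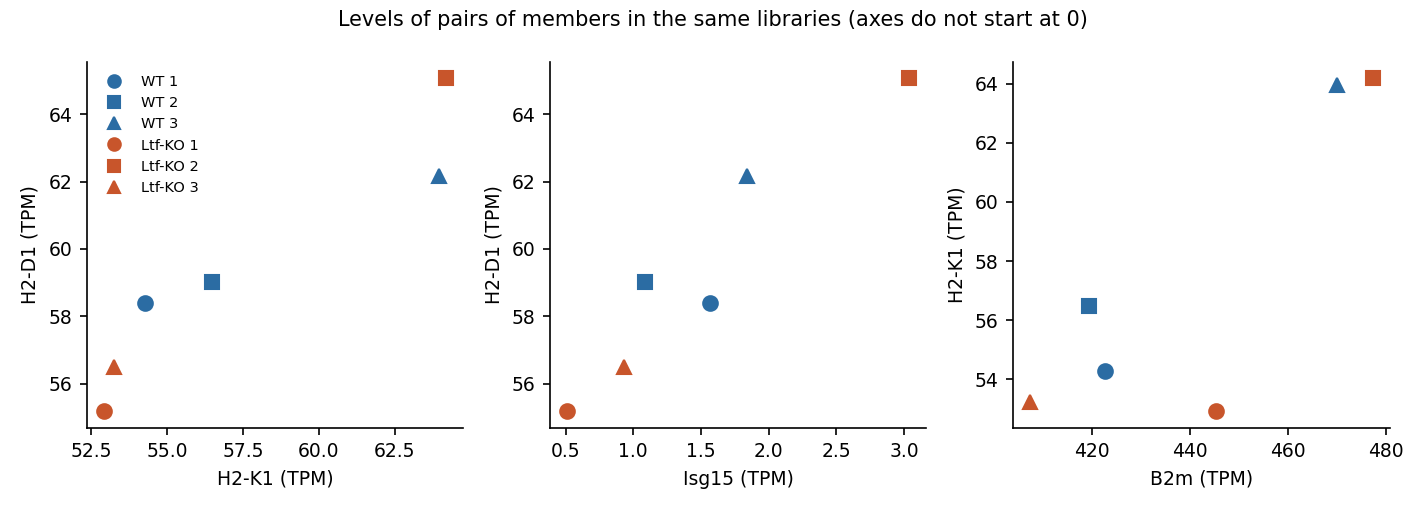
Levels in the 6 libraries (TPM, axes not starting at 0) of *H2-D1* against *H2-K1*, *H2-D1* against *Isg15* and *H2-K1* against *B2m*, 1 point for each library, with WT in blue and *Ltf*-KO in red. *H2-D1* rises with *H2-K1* in the same library order, while the *B2m* relation rests on WT 3 and *Ltf*-KO 2.

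The other genes of the pathway are given in the order in which the signal passes. Of 13 interferon genes, the ligands, none reached a mean of 1 TPM. *Ifnz* had a mean of 0.41 TPM and *Ifne* 0.072 TPM, and the other 11 were listed at 0 in all 6 libraries. Most of the receiving side was present: of 12 genes for receptors, Janus kinases and STATs 11 were tested. Means ran up to 31.9 TPM for *Jak1*, the kinase shared by all interferon receptors. The receptor chains *Ifnar1* and *Ifnar2* had 21.9 and 17.0 TPM. *Ifnlr1*, a chain of the interferon-λ receptor, had a mean of 0.11 TPM and was not tested. *Jak1*, *Ifnar1*, *Ifnar2* and *Ifnlr1* were chosen after their values were seen. Of the 11 tested genes 0 passed the adjusted test and 0 an unadjusted p under 0.05. Of their fold changes 9 were above 0 with a median of 0.064, while 55.7% of all genes tested had a fold change above 0. *Ifngr2*, a chain of the interferon-γ receptor, was at 5.75 in WT and 6.88 TPM in *Ltf*-KO SCs (log2 fold change 0.22) and *Il10rb*, a chain of the interferon-λ receptor, at 7.47 and 8.34 TPM (0.14), with all *Ltf*-KO libraries above all WT libraries for *Il10rb*. Neither passed the test (adjusted p = 0.999 each, limma).

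Of the 9 IRF genes 4 were tested and 0 passed at either threshold. Among them *Irf3*, the factor activated by nucleic acid sensing, was at 47.6 and 50.4 TPM and *Irf2*, an IRF1 antagonist, at 18.4 and 19.1 TPM in WT and *Ltf*-KO SCs. Of 17 nucleic acid sensors and their adaptors 12 were tested, 0 passed the adjusted test and 1 was higher at an unadjusted p under 0.05, against 2.01% of all genes tested in that direction. This was *Adar*, the enzyme that edits adenosine in RNA duplexes, at 10.4, 9.74 and 10.2 TPM in WT and 10.6, 14.2 and 12.3 TPM in *Ltf*-KO SCs. Every *Ltf*-KO library was above every WT library, the lowest by little, and the log2 fold change was 0.25 (adjusted p = 0.999, limma). The fold change was 0.16 without *Ltf*-KO 2, and under 9 of the 12 alternative settings no sensor gene passed the unadjusted threshold. *Tbk1*, the kinase that activates IRF3, was at 26.1 in WT and 22.8 TPM in *Ltf*-KO SCs (log2 fold change -0.19), and *Ticam1*, the TLR3 adaptor, at 3.21 and 3.82 TPM (0.19). All *Ltf*-KO libraries were above all WT libraries for *Ticam1*, but neither gene passed the test (adjusted p = 0.999, limma).

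Of 53 interferon-stimulated genes, a list that includes *Ifit1*, *Ifit3* and *Isg15*, 22 were tested, with 11 fold changes above and 11 below 0 and a median of 0.0070, which was below 0 under quantile normalization (-0.0095) and median-of-ratios scaling (-0.0026). None passed at either threshold. The median of the 53 mean levels was 0.448 TPM, but the levels were far from even. *Ifitm2* and *Ifitm3*, membrane proteins that block virus entry, had means of 326 and 210.1 TPM, whereas *Mx1* had 0.0067, *Oas2* 0.0033 and *Oas3* 0.005 TPM, and *Rsad2*, the antiviral enzyme viperin, had 0.21 TPM (these 6 genes were chosen after their values were seen). The ISRE core was in the windows of 18 of the 44 genes on this list that have one. *Rnf213*, *Ifit2* and *Ube2l6*, the ISG15-conjugating enzyme, were at 10.6, 8.13 and 12.5 TPM in WT and at 9.53, 7.45 and 13.3 TPM in *Ltf*-KO SCs.

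Of 14 interferon-inducible GTPases, which attack the vacuoles of intracellular pathogens, 4 were tested and 0 passed at either threshold, although 9 of the 10 with a window hold the ISRE core. *Gbp4*, *Gbp6* and *Gbp9* were at 2.76, 3.28 and 8.34 TPM in WT and at 3.14, 3.90 and 8.60 TPM in *Ltf*-KO SCs. Of 5 brakes on the pathway 4 were tested and 0 passed. The phosphatase gene *Ptpn2* was at 37.7 and 39.2 TPM, *Pias1* at 9.29 and 9.71 TPM and *Socs1*, the inhibitor of Janus kinases, at 1.79 and 1.92 TPM in WT and *Ltf*-KO SCs. *Usp18*, which removes ISG15 from proteins and blocks the type I receptor, had a mean of 0.298 TPM, was not tested and was named after its value was seen.

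Of 16 class I heavy chain genes 9 were tested and 0 passed at either threshold, with a median log2 fold change of -0.026. Besides *H2-K1* and *H2-D1* the levels were low: *H2-T22* was at 8.08 and 7.42 TPM, *H2-Q4* at 6.41 and 6.01 TPM and *H2-T24* at 0.943 and 1.43 TPM in WT and *Ltf*-KO SCs. Of 15 genes for class I peptide supply and loading 14 were tested, 0 passed at either threshold and the median was 0.018. The loading chaperones were abundant, with means of 586 TPM for *Calr*, 375 TPM for *Canx* and 340.2 TPM for *Pdia3*, which also fold other glycoproteins. These 3 genes, *Psmb8* and *Psmb9* were likewise chosen after their values were seen. Of the interferon-inducible proteasome subunits *Psmb8* had 2.36 TPM and *Psmb9* 0.845 TPM, and *Psmb10* was at 38.5 in WT and 40.5 TPM in *Ltf*-KO SCs. *Psme1*, a proteasome activator subunit, was at 39.7 and 36.7 TPM with all *Ltf*-KO libraries below all WT libraries (log2 fold change -0.11, adjusted p = 0.999 by limma). *Erap1*, the peptidase that trims class I peptides, was at 6.82 in WT and 5.80 TPM in *Ltf*-KO SCs.

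**Figure D5:**
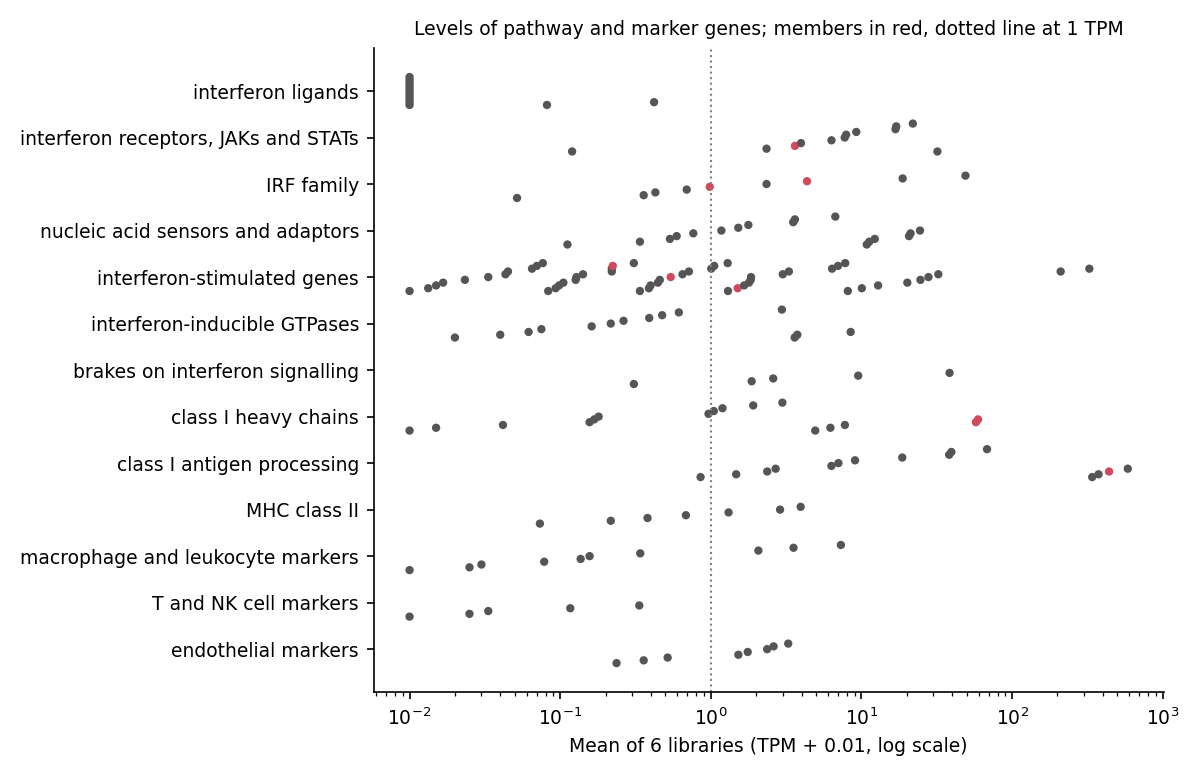
Mean level over the 6 libraries of every gene on the pathway lists and on 3 lists of markers of other cell types (TPM + 0.01, log10 axis), 1 point for each gene and 1 row for each list, with members in red and a dotted line at 1 TPM. The ligands lie at or near 0, the interferon-stimulated genes spread from 0 to 326 TPM, and *B2m* lies among the class I processing genes of highest level.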

How the data were processed

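RNA was sequenced from 3 WT and 3 *Ltf*-KO cultures of SCs at day 4. The authors deposited 1 table of TPM, normalised by a sequencing company. The submitters' processing notes name the build GRCm39, while the aligner, counter and annotation are not given in the sources used here. Values have 2 decimals and sum to 993650 to 994356 per library, and the depth is unknown. Libraries were assigned by column name, which matched the sample labels, and 0 value columns were left over.

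Values were taken as log2(TPM + 1). The 12956 genes that averaged 1 TPM or more were compared with limma 3.58.1 in R 4.3.3, using a mean-variance trend and Benjamini-Hochberg adjustment over all of them, at a threshold of 0.05 and with 95% intervals. Single values used two-sided exact permutation tests, and correlations used log2(TPM + 1) in 6 libraries. The 16 lists of genes matched 214 of 214 names in the table. The members and the lists were chosen with earlier results of these data known. Named genes were the 9 members, on each list any gene past the threshold plus up to 3 tested genes of lowest unadjusted p, and the 3 genes most like the interferon and the class I members. A gene that this rule names is not reported here. Same-numbered WT and *Ltf*-KO libraries did not deviate together. Alternatives were a pseudocount of 0.1, no filter, a mean of at least 10 TPM, a replicate block, quantile normalization, median-of-ratios scaling and leaving out each library. Promoter windows were RefSeq sequences on GRCm38.p6, and shared stretches were counted over GENCODE M21 transcripts.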

Additional observations from a re-analysis of the deposited data

How the results depend on the processing

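The count of 0 members at either threshold was the same under all 12 alternatives. The unadjusted counts of some lists moved from 0 to 1. For class I peptide supply and loading this was with no filter, quantile normalization or median-of-ratios scaling. For class I heavy chains it was with no filter and without *Ltf*-KO 2 or *Ltf*-KO 3. For interferon-stimulated genes it was without WT 1 or WT 3. For receptors, Janus kinases and STATs it was without *Ltf*-KO 2. Over all genes, 0 passed the adjusted threshold and 490 an unadjusted p under 0.05. Leaving out 1 library gave 0 to 7 genes at the adjusted threshold (7 without WT 2, 6 without *Ltf*-KO 1, 3 without *Ltf*-KO 3 and 2 without WT 3 or *Ltf*-KO 2) and 446 to 613 at the unadjusted one. The unadjusted count was 890 with no filter and 281 at a mean of at least 10 TPM. Of those genes 46.9% were lower in *Ltf*-KO SCs, against 60.0% under quantile normalization and 55.8% under median-of-ratios scaling. With the replicate block 0 genes passed the adjusted threshold and 380 the unadjusted one, and the deviations of same-numbered libraries correlated at -0.041, -0.058 and -0.088, so the numbers were not taken as pairs.

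The median of the interferon-stimulated genes went from 0.0070 to -0.0012 with no filter, and that of the IRF genes from -0.0053 to 0.046 with no filter and 0.064 at a mean of at least 10 TPM. The median over all genes went from 0.011 to -0.0020 under quantile normalization. The fold changes of single named genes turned sign only when a library was left out, and the cause was not tested. Over these 6 fits the fold change ran from -0.0076 to 0.26 for *Stat2*, -0.17 to 0.068 for *Irf1*, -0.54 to 0.17 for *Isg15*, -0.036 to 0.078 for *B2m*, -0.13 to 0.030 for *H2-K1* and -0.098 to 0.019 for *H2-D1*. It ran from -0.074 to 0.10 for *Gbp9*, -0.0016 to 0.16 for *Socs1*, -0.24 to 0.0094 for *H2-Q4* and -0.0039 to 0.29 for *H2-Eb1*. For the genes most like the members it ran from -0.041 to 0.040 for *Ipo4*, -0.13 to 0.099 for *Mboat1*, -0.038 to 0.076 for *Prmt5*, -0.096 to 0.025 for *Prrg4*, -0.11 to 0.028 for *Zfp418* and -0.088 to 0.033 for *Trip10*. The smallest adjusted p of any named gene in any fit was 0.946. Without counts, differences in *Irf7*, *Ifit1* and *Ifit3* cannot be set against counting error.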

Other observations

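MHC class II genes, which interferon-γ induces through a separate master regulator, were low. Of 7 listed genes 3 were tested and 0 passed the adjusted test, and the list summed to 7.53 to 10.4 TPM in WT and 8.86 to 11.2 TPM in *Ltf*-KO libraries. *H2-DMa*, which catalyses peptide loading of class II, was at 3.66, 3.35 and 3.22 TPM in WT and at 5.17, 3.85 and 4.38 TPM in *Ltf*-KO SCs. All *Ltf*-KO libraries were above all WT libraries (log2 fold change 0.30, adjusted p = 0.999 by limma, unadjusted p = 0.0382). Its unadjusted p rose above 0.05 without WT 2, WT 3, *Ltf*-KO 1 or *Ltf*-KO 3, with the replicate block and with no filter. *H2-Eb1* was at 2.71 in WT and 3.03 TPM in *Ltf*-KO SCs and *H2-Ab1* at 1.43 and 1.18 TPM. *H2-Q7*, a non-classical class I heavy chain chosen after its values were seen, was at 0.80, 0.66 and 0.53 TPM in WT and at 1.07, 1.41 and 1.26 TPM in *Ltf*-KO SCs, with a mean below the filter of the test.

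The genes whose level across the 6 libraries was most like the mean standardised profile of *Stat2*, *Irf1* and *Isg15* were *Ipo4* (r = 0.993), *Mboat1* (r = 0.991) and *Prmt5* (r = 0.985). For the profile of *B2m*, *H2-K1* and *H2-D1* they were *Prrg4* (r = 0.994), *Zfp418* (r = 0.990) and *Trip10* (r = 0.989). These are descriptions over 6 libraries chosen as the highest among all tested genes. At r of at least 0.95 there were 25 genes for the interferon profile and 65 for the class I profile. *Prrg4* was at 40.8, 41.7 and 46.1 TPM in WT and at 40.2, 46.4 and 39.7 TPM in *Ltf*-KO SCs, high in the same libraries, WT 3 and *Ltf*-KO 2, as the class I genes.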
